A study of Oryza sativa with 2 samples.

Results

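Superoxide dismutases (SODs) and catalases are the enzymes that remove superoxide and hydrogen peroxide from plant cells. The 9 rice genes described here encode 6 SODs and 3 catalases, and they were chosen by locus ID from the 41981 IDs of the deposited table. They comprise 2 cytosolic Cu/Zn-SODs, 1 plastid Cu/Zn-SOD, 2 Fe-SODs, 1 Mn-SOD and the catalases CatA, CatB and CatC. The rule for the members uses their IDs and no measured value, although earlier results of these data were known when it was set. All 9 were found, each in 1 gene entry, and all 9 were above 0 in both libraries.

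Transcripts were measured by RNA-seq in leaves of 4-week-old rice, with wild-type (WT) *indica* cv. Zhongjiazao 17 and the *yl-1* mutant represented by 1 library each. The mutant was found in an EMS-mutagenized collection of that cultivar and carries a base change in *YL-1*, a subunit of the cyclase that closes the isocyclic ring of Chl. Mutations elsewhere in its genome were not analysed here. Both genotypes were raised as seedlings on diluted MS medium at 26°C under light of 300 μmol per m2 per s, and whether a library pooled several plants is not given in the sources used here. Replicates are lacking (1 library per genotype), so neither p-value nor SD can be given, and what follows describes these libraries and not the genotypes.

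Superoxide arises wherever electrons reach oxygen, above all at photosystem I in illuminated leaves. SODs turn it into hydrogen peroxide and oxygen, and the metal of the enzyme sorts with its place in the cell. Mn-SOD works in mitochondria, Fe-SODs in plastids, and Cu/Zn-SODs in the cytosol and in plastids. Catalases break down hydrogen peroxide in peroxisomes, where glycolate oxidase produces it during photorespiration. Hydrogen peroxide made in chloroplasts and cytosol is removed mainly by ascorbate peroxidases and the enzymes that regenerate ascorbate and glutathione.

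Values are FPKM, fragment numbers divided by transcript length and library size, so levels can be set side by side between genes. Differences are given as log2((FPKM + 1) ratio) of the *yl-1*-labelled library over the WT-labelled library. Positive values stand for a higher level in the *yl-1*-labelled library. A supplementary list of 24 genes in the study carries values of these columns under the opposite genotype names, and 0 of the 9 members is on it. Of the 24 genes, 0 match under the same name. Crosswise, 18 match by the list's *yl-1* value and 23 by its WT value. Genotypes are named here as in the deposited columns, and every direction turns around if the names are exchanged. The study also measured *YL-1* and other Chl synthesis genes by qRT-PCR, which bears on the naming and was not used to name the libraries. It describes *YL-1* transcription as strongly reduced in the mutant, whereas the *yl-1*-labelled column holds the higher *YL-1* value. By qRT-PCR, *CHLI* was up and *CAO1*, *DVR* and *YGL1* were down in the mutant. The supplementary list gives these genes the same directions under its own names. Which naming holds was not tested. Leaf transcripts were abundant in both libraries. *PsbO*, a subunit of the oxygen-evolving complex, stood at 3824 and 5206 FPKM in the WT-labelled and *yl-1*-labelled libraries, respectively, and *YL-1* itself at 671 and 1124 FPKM. Of 2 root markers, silicon transporters identified from general knowledge of rice locus IDs, 1 was at 8.61 and 13.5 FPKM and the other was listed at 0 in both libraries. In bulk leaf RNA, fewer cells of a type and less RNA per cell cannot be told apart.

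*CatC* was the most abundant of the 9 in both libraries, and the second Fe-SOD gene was the least abundant. *CatC* was rank 28 among all 42152 gene entries in the WT-labelled library and rank 25 in the other. The first cytosolic Cu/Zn-SOD followed at rank 154 and 150. The other 7 members reached at most 117 FPKM in either library. Together the 9 genes accounted for 0.491% of all FPKM in the WT-labelled library and 0.579% in the *yl-1*-labelled library.

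**Figure D1:**
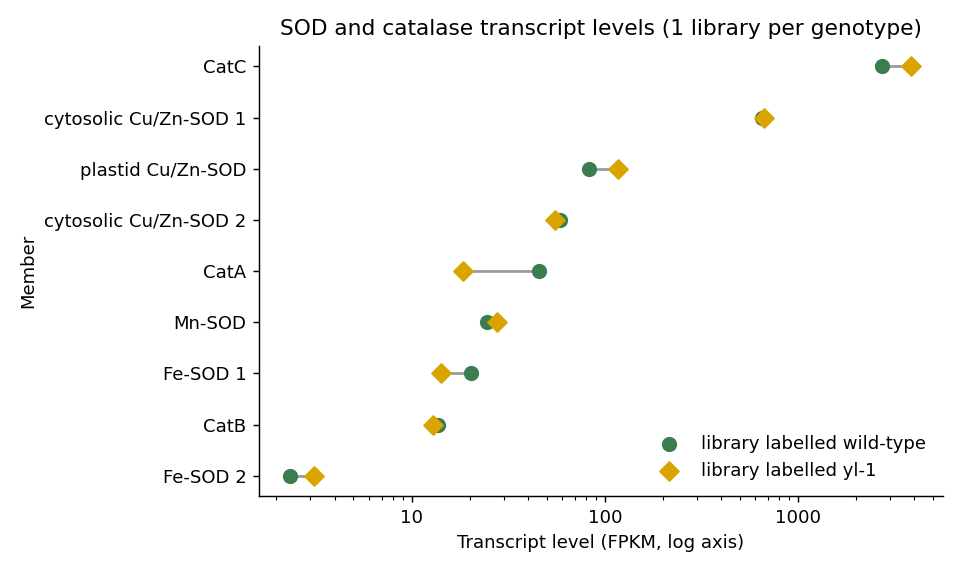
Transcript levels of the 9 members in FPKM on a log axis, with a circle for the WT-labelled library and a diamond for the *yl-1*-labelled library. *CatA* has the widest gap (45.7 and 18.5 FPKM), while *CatC* and the plastid Cu/Zn-SOD stand higher in the *yl-1*-labelled library.

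*CatA* parted the libraries more than any other member, and the other 8 members lay within 2-fold. *CatA* was lower in the *yl-1*-labelled library, *CatC* and the plastid Cu/Zn-SOD were moderately higher, and the first Fe-SOD was moderately lower. The remaining 5 members had absolute log2 ratios of 0.025 to 0.29. In all, 1 of 9 members was past 2-fold. For comparison, 14559 gene entries averaged 1 FPKM or more over both libraries, and 6.15% of these compared genes were past 2-fold, with 2.5% higher and 3.65% lower. With the libraries set to equal FPKM sums, 286 compared genes were past 2-fold higher and 681 lower, against 364 and 531 as deposited. By any amount, 5 members were higher and 4 lower, and 51.7% of all compared genes were higher. The median log2 ratio of the 9 members was 0.025 and that of all compared genes 0.014. The median absolute log2 ratio was 0.29 for the members and 0.24 for all compared genes. As a set, the 9 genes were thus placed near all compared genes in these measures.

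**Figure D2:**
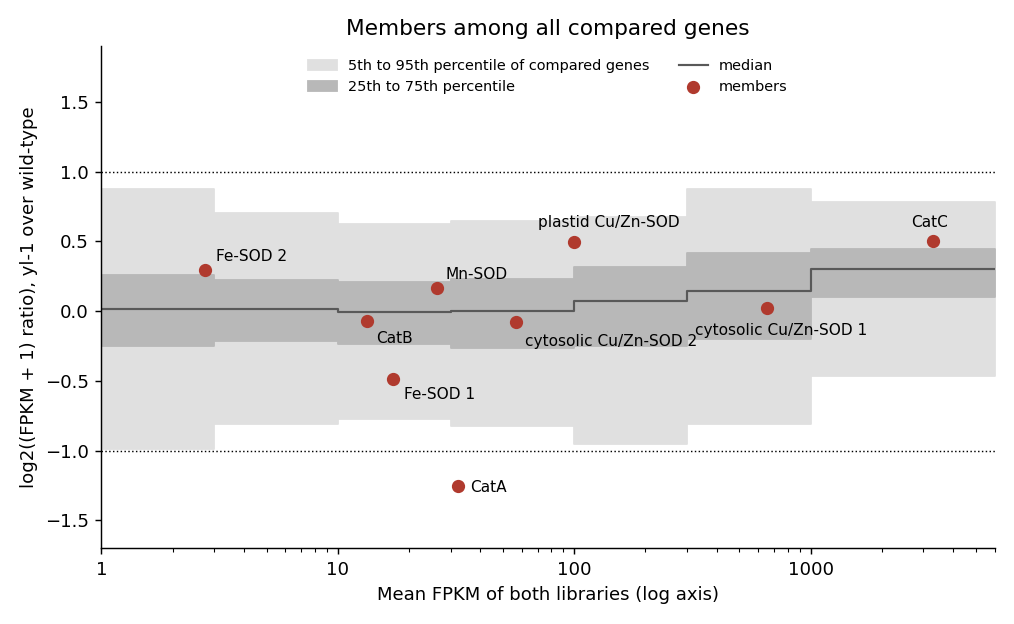
Log2((FPKM + 1) ratio) of the 9 members (points) against mean FPKM on a log axis. The bands give the 5th to 95th and the 25th to 75th percentile, and the line the median, of all compared genes in bins of mean FPKM. Dotted lines mark 2-fold. *CatA*, at -1.26, is the only member outside the wide band.

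The catalases included the most abundant of the members and the one with the largest difference. *CatC* (LOC_Os03g03910, chromosome 3) is the catalase whose loss raises hydrogen peroxide in rice leaves. Its transcripts stood at 2726 FPKM in the WT-labelled library and 3860 FPKM in the *yl-1*-labelled library. The ratio was 1.42 and the log2 ratio 0.50. A lower log2 ratio was seen in 90.0% of all compared genes. Abundant transcripts leaned to the same library, and the 93 genes averaging 1000 FPKM or more had a median log2 ratio of 0.30, with 0.099 and 0.45 as 25th and 75th percentiles. *CatC* lay above the 75th percentile of the genes of its level and below their 95th percentile of 0.78.

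*CatA* (LOC_Os02g02400, chromosome 2) showed the opposite direction. This second catalase isozyme was at 45.7 FPKM in the WT-labelled library and 18.5 FPKM in the *yl-1*-labelled library, which is 2.47-fold lower without a pseudocount. The log2 ratio was -1.26. A smaller absolute change was seen in 96.3% of all compared genes, and 2.20% had a lower log2 ratio. Among the 5100 genes with a mean FPKM from 10 to 100, the range that holds *CatA*, 4.35% were past 2-fold and 2.94% were past 2-fold lower. The 5th percentile of genes from 30 to 100 FPKM was -0.82. Its rank among all entries was 1877 in the WT-labelled library and 3918 in the other.

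*CatB* (LOC_Os06g51150, chromosome 6), the remaining isozyme, was the least abundant catalase. It stood at 13.7 and 13.0 FPKM in the WT-labelled and *yl-1*-labelled libraries, with a log2 ratio of -0.075. A smaller absolute change was seen in 17.3% of all compared genes. The 3 catalases thus took 3 different courses, with *CatC* higher, *CatA* lower and *CatB* at nearly the same level.

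Ratios between catalases of the same library do not depend on how the libraries are scaled. *CatC* was 59.7 times as abundant as *CatA* in the WT-labelled library and 208 times in the *yl-1*-labelled library, so this ratio differed 3.49-fold between the libraries. *CatA* was 3.34 times as abundant as *CatB* in the WT-labelled library and 1.43 times in the other. *CatC* made up 97.9% and 99.2% of the summed catalase FPKM, *CatA* 1.64% and 0.476%, and *CatB* 0.492% and 0.333%. The catalase sum was 2785 FPKM in the WT-labelled library and 3891 FPKM in the *yl-1*-labelled library, a ratio of 1.40 that follows *CatC*. The sum of *CatA* and *CatB* went the other way, from 59.4 to 31.5 FPKM.

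**Figure D3:**
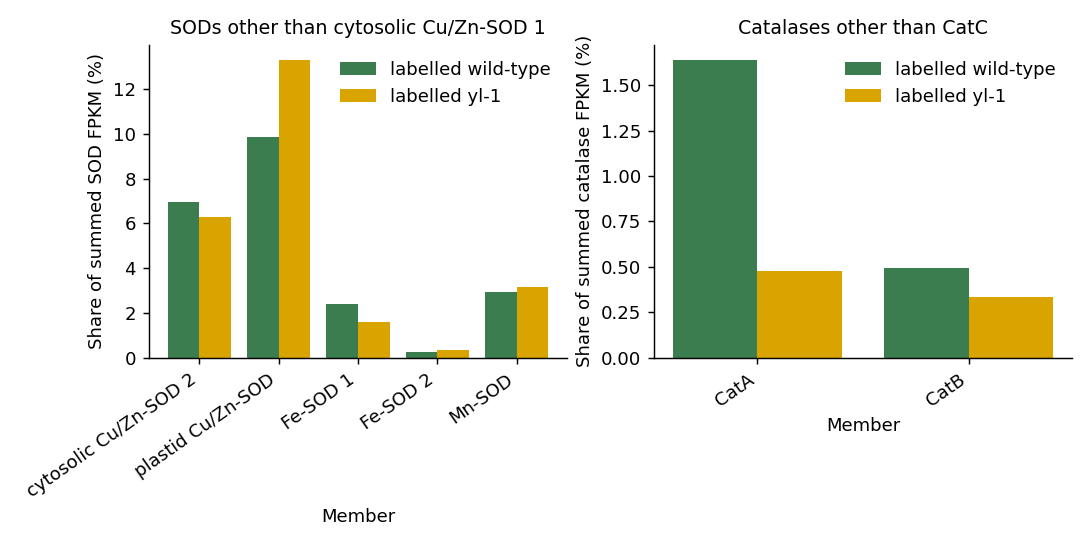
Share of each less abundant member in the summed FPKM of its enzyme (%), in the WT-labelled and *yl-1*-labelled libraries. The left panel leaves out the first cytosolic Cu/Zn-SOD (77.6% and 75.3%) and the right panel *CatC* (97.9% and 99.2%). The share of the plastid Cu/Zn-SOD is larger in the *yl-1*-labelled library and that of *CatA* is smaller.

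Among the SODs, the cytosolic Cu/Zn enzymes held most of the transcripts and, as deposited, had the smallest log2 ratios in size. With equal FPKM sums, Mn-SOD was the closest to 0. The first cytosolic gene (LOC_Os03g22810, chromosome 3) was at 651 FPKM in the WT-labelled library and 663 FPKM in the *yl-1*-labelled library. It is called *SodCc1* here, a RefSeq name on the same chromosome. Its log2 ratio of 0.025 was the smallest in size of the 9 members, and it turned to -0.13 with the libraries set to equal FPKM sums. The second (LOC_Os07g46990, chromosome 7; *SodCc2*) was at 58.5 and 55.2 FPKM, with a log2 ratio of -0.082. The first gene was 11.1 times as abundant as the second in the WT-labelled library and 12.0 times in the other. Their sum of 710 and 718 FPKM was 1.01 times as high in the *yl-1*-labelled library.

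The plastid SODs moved apart. The plastid Cu/Zn-SOD (LOC_Os08g44770, chromosome 8; *sodCp*), which removes superoxide near the thylakoids, was at 82.8 FPKM in the WT-labelled library and 117 FPKM in the *yl-1*-labelled library. The ratio was 1.42 and the log2 ratio 0.50, and 89.8% of all compared genes had a lower log2 ratio. The entry joins this gene with the next locus ID, LOC_Os08g44780, so the share of each in its value is unknown. Genes with a mean FPKM from 30 to 100 had a 75th percentile of 0.23 and a 95th percentile of 0.64, and the plastid Cu/Zn-SOD (mean 99.96 FPKM) lay between them.

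The Fe-SODs, the other plastid group, were less abundant. The first Fe-SOD (LOC_Os06g05110, chromosome 6) stood at 20.2 FPKM in the WT-labelled library and 14.1 FPKM in the *yl-1*-labelled library. The log2 ratio was -0.49, and a smaller absolute change was seen in 76.9% of all compared genes. The second Fe-SOD (LOC_Os06g02500, chromosome 6) was the lowest member, at 2.36 and 3.11 FPKM, with a log2 ratio of 0.29. The Fe-SOD pair thus took opposite directions, and the ratio of the first to the second was 8.58 in the WT-labelled library and 4.54 in the *yl-1*-labelled library. At 2 to 3 FPKM, and with the number of fragments unknown, the second value is the least certain of the 9.

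The plastid Cu/Zn-SOD entry and the first Fe-SOD went opposite ways, so the balance between them necessarily differed more than either value alone. The Cu/Zn-SOD entry also holds LOC_Os08g44780, so its value is not that of the enzyme alone. The plastid Cu/Zn-SOD entry was 4.09 times as abundant as the first Fe-SOD in the WT-labelled library and 8.29 times in the *yl-1*-labelled library, a 2.03-fold difference that does not depend on scaling. In *Arabidopsis*, copper supply shifts this balance, since low copper lowers Cu/Zn-SOD transcripts through a microRNA and raises an Fe-SOD. Copper supply was not measured here, and whether it bears on any of these values was not tested. The single entry listed for the copper chaperone that loads Cu/Zn-SODs was at 43.4 and 40.6 FPKM, with a log2 ratio of -0.093. The sum of the 3 plastid entries was 105 and 134 FPKM, while the Fe-SOD sum was 22.6 and 17.3 FPKM.

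Mn-SOD (LOC_Os05g25850, chromosome 5; *sodA*), the mitochondrial enzyme, was at 24.6 FPKM in the WT-labelled library and 27.7 FPKM in the *yl-1*-labelled library. The log2 ratio was 0.16, and a smaller absolute change was seen in 36.3% of all compared genes. With equal FPKM sums it was at 0.012. *CatA* was 1.86 times as abundant as Mn-SOD in the WT-labelled library, and 0.669 times in the other.

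The shares of the SOD transcripts differed by at most 3.46 percentage points between the libraries. The first cytosolic Cu/Zn-SOD gave 77.6% of the SOD sum in the WT-labelled library and 75.3% in the *yl-1*-labelled library, the second 6.96% and 6.27%, and the plastid Cu/Zn-SOD 9.86% and 13.3%. Mn-SOD gave 2.93% and 3.15%, the first Fe-SOD 2.41% and 1.61%, and the second Fe-SOD 0.281% and 0.354%. Without the plastid Cu/Zn-SOD entry, the first cytosolic gene gave 86.0% and 86.9%, so the direction of its share rests on that entry. The SOD sum of 840 and 880 FPKM differed 1.05-fold, against 1.40-fold for the catalase sum. Catalase transcripts were 3.32 times the SOD transcripts in the WT-labelled library and 4.42 times in the *yl-1*-labelled library.

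The order of levels differed in 1 place. In the WT-labelled library it ran from *CatC* and the first cytosolic Cu/Zn-SOD to the plastid Cu/Zn-SOD, the second cytosolic Cu/Zn-SOD, *CatA*, Mn-SOD, the first Fe-SOD, *CatB* and the second Fe-SOD. In the *yl-1*-labelled library, Mn-SOD stood before *CatA*. Neighbours from the plastid Cu/Zn-SOD down to *CatB* were 1.22-fold to 1.86-fold apart in the WT-labelled library. In the *yl-1*-labelled library, the plastid Cu/Zn-SOD was 2.12-fold above the second cytosolic gene, and the following steps were 1.09-fold to 1.99-fold. No spread between plants is known against which to read these steps.

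The choice of scaling moved the log2 ratio of every member and changed direction only where the difference was small. Equal FPKM sums moved the median of all compared genes from 0.014 to -0.12, and the other scalings left it between 0 and 0.028. Under the 5 scalings, *CatA* had log2 ratios of -1.41 to -1.24, *CatC* of 0.34 to 0.52, the plastid Cu/Zn-SOD of 0.34 to 0.51 and the first Fe-SOD of -0.63 to -0.47. These 4 kept their direction, as did the second Fe-SOD (0.18 to 0.31), Mn-SOD (0.012 to 0.18), *CatB* (-0.22 to -0.058) and the second cytosolic Cu/Zn-SOD (-0.24 to -0.065). The first cytosolic Cu/Zn-SOD was the only member to change sign.

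**Figure D4:**
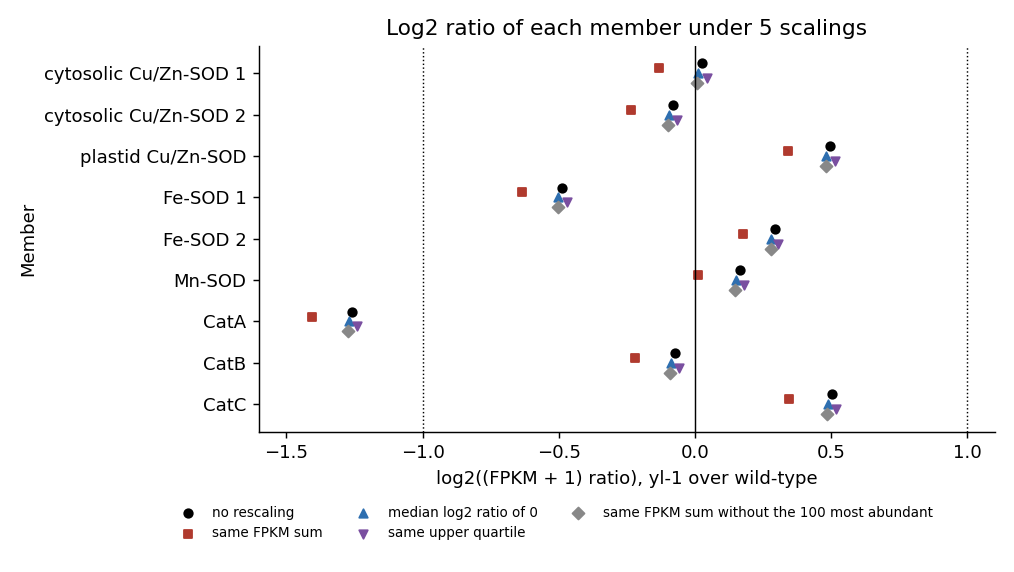
Log2((FPKM + 1) ratio) of each member, with 1 symbol for each of 5 scalings of the libraries. The solid line marks no difference and dotted lines mark 2-fold. *CatA* lies between -1.41 and -1.24 under all 5 scalings, and the first cytosolic Cu/Zn-SOD crosses 0 under the same FPKM sum (-0.13).

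Other genes of hydrogen peroxide and superoxide metabolism were set beside the members. Their 37 locus IDs came from general knowledge of rice nomenclature, and the deposited table does not pair them with names. All 37 were found, and 29 averaged 1 FPKM or more. Of these, 24 were higher in the *yl-1*-labelled library and 5 lower, with 0 past 2-fold in either direction. Among all compared genes, 51.7% were higher and 6.15% were past 2-fold. The median log2 ratio was 0.34, against 0.014 for all compared genes. With equal FPKM sums, 21 were higher and 8 lower, with a median of 0.20, against -0.12 for all compared genes. Of these genes, 12 averaged 100 FPKM or more, and as deposited all 12 were higher, where 60.0% of all 945 genes at that level were higher. With equal FPKM sums, 10 of the 12 and 45.8% of the 945 were higher.

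The ascorbate and glutathione enzymes leaned to the *yl-1*-labelled library. As deposited, the 8 ascorbate peroxidase genes were all higher, with log2 ratios of 0.072 to 0.61 and a median of 0.31, whereas with equal FPKM sums 6 of the 8 were higher and the median was 0.16. Both dehydroascorbate reductase genes, which recycle ascorbate, were higher at 0.44 and 0.64 (0.29 and 0.49 with equal FPKM sums). Of 4 monodehydroascorbate reductase genes, 3 were higher, with a range of -0.54 to 0.93 as deposited. Both compared glutathione reductase genes were higher at 0.17 and 0.44, but with equal FPKM sums they stood at 0.017 and 0.30. Of 5 glutathione peroxidase-like genes, 4 were higher, with a median of 0.41 (3 of 5 and 0.27 with equal FPKM sums). The median of the 6 SOD members was 0.094, and that of the 3 catalases was -0.075.

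Genes that produce the substrates went separate ways. The glycolate oxidases, which feed hydrogen peroxide to catalase, were higher in all 3 compared genes. Their log2 ratios ran from 0.30 to 0.58, the last from a gene little above the filter of 1 FPKM. Their 2 abundant genes stood at 991 and 2077 FPKM in the WT-labelled library and at 1272 and 2560 FPKM in the *yl-1*-labelled library. *CatC* was 0.888 times the glycolate oxidase sum in the WT-labelled library and 1.01 times in the other. The log2 ratios of the 2 abundant oxidases, 0.30 and 0.36, lay at and near the median of 0.30 over the 93 genes averaging 1000 FPKM or more, between their 25th and 75th percentiles. Of 9 NADPH oxidase genes, which make superoxide at the plasma membrane, 4 were compared. Among them 2 were higher and 2 lower, with a range of -0.51 to 0.84. In both libraries the higher genes were less abundant than the lower ones.

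**Figure D5:**
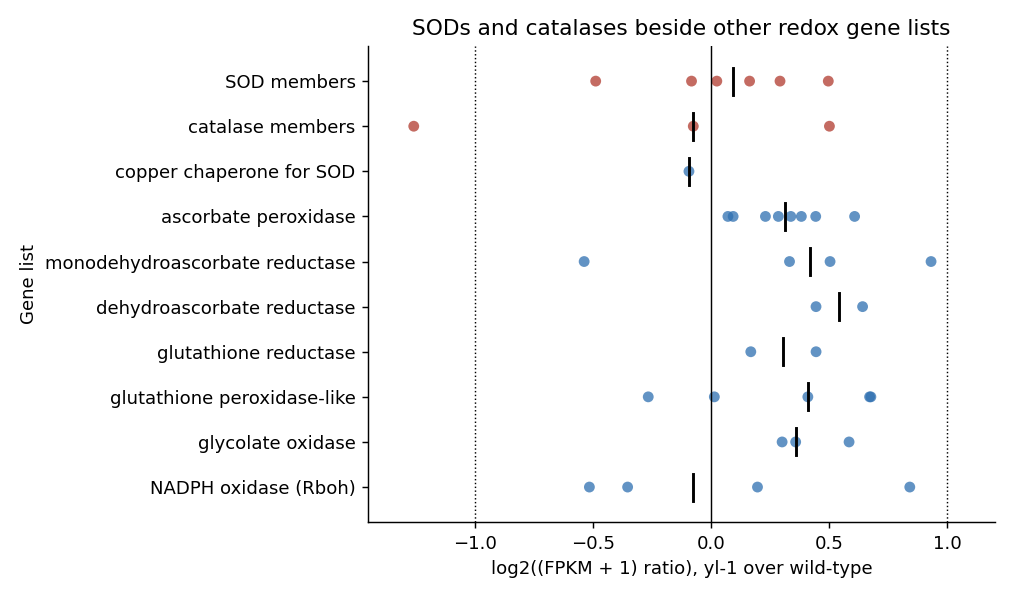
Log2((FPKM + 1) ratio) of the SOD and catalase members (red) and of the compared genes of 8 other redox lists (blue). Each point is 1 gene, the short bar is the median of its list, and dotted lines mark 2-fold. *CatA* is the only point past 2-fold, and the 8 ascorbate peroxidases all lie above 0 in these values, which are not rescaled (6 of 8 do with equal FPKM sums).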

How the data were processed

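Leaf mRNA was sequenced from 1 wild-type and 1 *yl-1* library, and the authors deposited FPKM values for both. The submitters' processing notes list TopHat, Cufflinks and Cuffdiff. Tool versions, genome build and annotation were not given in the sources used here. Columns were assigned by their names, and 0 columns were left unused. The table holds 42152 entries, of which 279 join several loci. Depth is unknown, and whole reads could not be recovered from the FPKM, so intervals for counting error were not computed. In 796 entries that averaged under 0.1 FPKM and were above 0 in both libraries, ratios (*yl-1* over wild-type) were most frequent between 1.11 and 1.15. That narrow bin held only 39 of the 796 entries.

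The measure was log2((FPKM + 1) ratio), over the 14559 entries averaging 1 FPKM or more, with a call at 2-fold. No test was possible with 1 library per genotype, and percentiles over genes describe these libraries. The counting code was checked on WT-labelled values with planted folds and no added noise, which says nothing of error in these data. The members and lists were chosen with earlier results of these data known. Values are given for the 9 members and, mostly summarised by list, for the 37 other IDs, with single values for some genes only. With 2 libraries, genes of like pattern were not sought. Of the members, 0 locus IDs and 6 names, the latter on the chromosome of the locus ID, were found in the RefSeq table of assembly ASM3414082v1. RefSeq thus does not itself link these names to the locus IDs. No sequence was used here. Alternatives were other pseudocounts, filters, scalings and fold thresholds. Python 3.11.15, numpy 2.4.6, pandas 2.3.3 and matplotlib 3.10.9 were used.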

Additional observations from a re-analysis of the deposited data

How the results depend on the processing

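No paired analysis was possible because each genotype has only 1 library. *CatA* was past 2-fold under every pseudocount, filter and scaling that was run and was the only member past 2-fold or, as deposited, past 1.5-fold, while 0 members were past 4-fold. The log2 ratio of the first cytosolic Cu/Zn-SOD turned to -0.13 with equal FPKM sums. Omitting the pseudocount was chosen after the data were seen and changed no direction. Leaving the plastid Cu/Zn-SOD entry out of the SOD sum, also chosen then, put the first cytosolic gene at 86.0% and 86.9% of the rest, against 77.6% and 75.3% with it. Of the 29 other redox genes, 0 passed 2-fold, against 1 with 0.1 as pseudocount, 2 with 0.01 and 6 at the 1.5-fold threshold, all higher. Over all genes compared, the calls numbered 364 higher, 531 lower and 895 together. They numbered 586 higher and 1368 together with 0.1 as pseudocount, 611, 818 and 1429 with 0.01, and 154, 268 and 422 for genes averaging 5 FPKM or more. The 1.5-fold threshold called 1122, 1393 and 2515, and the 4-fold threshold 63, 99 and 162. Equal FPKM sums multiply the *yl-1*-labelled values by 0.897, which moved the share of higher genes among these calls from 40.7% to 29.6%. Why the sums differ was not tested.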
